A study of Mus with 2 samples.

Results

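The genes described are 10 long noncoding RNAs of the 32285 genes counted by single-nucleus RNA sequencing (snRNA-seq) of mouse interscapular brown adipose tissue (iBAT). They are *Lncbate10*, *Gm30173*, *Gm10649*, *A530053G22Rik*, *A530065N20Rik*, *2900005J15Rik*, *Gm9899*, *Malat1*, *Neat1* and *Gm42418*. The members were selected on their UMI levels in these 2 libraries, across lineages, adipocyte-like clusters and mitochondrial shares and between the libraries, so the values below are a description and none is a test. Of the 2 libraries, 1 came from *Wtap* flox/flox mice and 1 from mice labelled *Wtap*-BKO, which carried *Wtap* flox/flox together with UCP1-iCre. Both therefore shared the floxed *Wtap* alleles. The C57BL/6 strain, normal chow and an age of 8 weeks were also common to both. The Cre is driven by the promoter of *Ucp1*, a gene of brown adipocytes, and a library with UCP1-iCre alone was not analysed here. Nuclei of 4 mice were pooled per library, so each genotype had 1 library without replicate, and a difference between libraries cannot be told apart from a difference between genotypes.

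Long noncoding RNAs are transcripts that are not translated, and many of them stay in the nucleus, where snRNA-seq counts them together with unspliced mRNA. *Malat1* is kept in nuclear speckles, the bodies that hold splicing factors, and *Neat1* is the scaffold of paraspeckles. *Lncbate10* is a brown fat RNA needed for brown adipocyte differentiation, and it is known to hold the RNA-binding protein CELF1 away from *Ppargc1a* mRNA. WTAP is a subunit of the m6A methyltransferase complex, which marks both mRNAs and long noncoding RNAs, *Malat1* among them. *Gm42418* overlies ribosomal RNA sequence and is named Rn18s-rs5, a pseudogene, in RefSeq. It is therefore not a long noncoding RNA in the sense of the other 9 members.

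There were 9494 nuclei with 10770604 unique molecular identifiers (UMIs) from *Wtap* flox/flox, and 8772 nuclei with 13945673 UMIs from the library labelled *Wtap*-BKO. Median depth was 954 and 1306 UMIs per nucleus, and mitochondrially encoded genes took 7.60% and 11.7% of UMIs. A total of 20 barcodes occurred in both libraries. *Wtap* itself did not separate the libraries. In adipocyte-like nuclei it stood at 50.1 counts per 1000000 UMIs (CPM, 380 UMIs) in *Wtap* flox/flox and at 48.1 CPM (401 UMIs) in the other library, a log2 ratio of -0.06 (95% interval -0.26 to 0.15). The tags lie at the 3' end of a transcript and need not report the deleted exon, so the second group is called the library labelled *Wtap*-BKO throughout. Clusters formed without the 10 members gave 5 adipocyte-like clusters with 6730 and 4919 nuclei, and in both libraries all 12 adipocyte markers were higher there than in macrophage- and T cell-like nuclei. These same markers were used to name the clusters, so this is a description and not a check of the names. All intervals are exact 95% intervals for counting error alone, and say nothing of how mice or preparations vary.

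Per RefSeq annotation of GRCm38.p6, *Malat1* (chr19:5795690-5802672) and *Neat1* (chr19:5824708-5845480) lie 22035 bases apart on the same chromosome. *Lncbate10* lies at chr18:61470225-61484607, between the protein-coding genes *Ppargc1b*, a coactivator of mitochondrial genes, and *Arhgef37*, and 167 bases from *Gm46637*, another long noncoding RNA. *2900005J15Rik* (chr5:25100975-25103007) lies wholly within *Prkag2*, which encodes a regulatory subunit of AMP-activated protein kinase. *Gm9899* (chr5:30573987-30588619) overlaps the potassium channel gene *Kcnk3* by 450 bases, and *Gm10649* (chr8:76749087-76900621) overlaps the mineralocorticoid receptor gene *Nr3c2* by 2539 bases. *Gm42418* (chr17:39846354-39848202) overlaps *AY036118* by 91 bases. *Gm30173* (chr3:52516964-52550219), *A530053G22Rik* (chr6:60397166-60403707) and *A530065N20Rik* (chr13:60029711-60116669) overlap no listed gene. The gene table gives no strand, so a sharing of reads between overlapping genes was not tested.

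In adipocyte-like nuclei, 9 of the 10 members had a lower CPM in the library labelled *Wtap*-BKO than in *Wtap* flox/flox, and 3 of them were at least 2-fold lower. A ratio below 0 was found for 45.4% of all genes. For *Gm30173*, which is among the 9, the sign turned without nuclei of over 5% mitochondrial UMIs. These 3 were *Lncbate10*, *A530065N20Rik* and *Gm9899*. Among all 14077 genes with at least 20 UMIs over both libraries, 4.21% were at least 2-fold lower and 14.8% at least 2-fold higher, whereas 0 of the members were at least 2-fold higher. The median log2 ratio was -0.51 over the members and 0.07 over all genes. All 10 members passed the minimum of 20 UMIs in this class. Mitochondrial UMIs took 4.46% and 11.7% of the UMIs of this class in the 2 libraries, and their part in the ratios was not tested beyond the values within bins given below. Leaving them out of the denominator moved the median of all genes by 0.11 on the log2 scale, and all ratios with it. In bulk sums such as these, fewer nuclei that express a gene and less RNA per nucleus cannot be told apart.

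*Lncbate10* stood at 205 CPM (195 to 216, 1557 UMIs) in adipocyte-like nuclei of *Wtap* flox/flox and at 93.3 CPM (86.9 to 100.1, 778 UMIs) in the library labelled *Wtap*-BKO. The log2 ratio was -1.14 (-1.26 to -1.01), and 2.91% of all genes had a lower one. Without nuclei of over 5% mitochondrial UMIs it was -0.98, just short of 2-fold, so that 2 of the 10 members were at least 2-fold lower there. To compare at equal depth, nuclei of at least 1000 UMIs were thinned to that number, which left out 3448 of 6730 adipocyte-like nuclei in *Wtap* flox/flox and 1089 of 4919 in the library labelled *Wtap*-BKO. After thinning, 18.0% of 3282 and 6.92% of 3830 adipocyte-like nuclei held at least 1 UMI of it. Macrophage- and T cell-like nuclei, which stand in for free RNA, gave 10.9% of 184 and 2.33% of 1115 nuclei. Without thinning, the shares were 18.4% and 10.3% in adipocyte-like nuclei and 8.47% and 3.16% in macrophage- and T cell-like nuclei, at median depths of 989, 1475, 908 and 1152 UMIs. So the RNA was seen in a smaller share of nuclei of the library labelled *Wtap*-BKO in both kinds of nuclei, also at equal depth.

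*A530065N20Rik* was at 445 CPM (430 to 460, 3373 UMIs) in *Wtap* flox/flox and at 144 CPM (136 to 153, 1204 UMIs) in the library labelled *Wtap*-BKO. Its log2 ratio of -1.62 (-1.72 to -1.53) was undercut by 1.03% of all genes. At equal depth, 34.7% and 12.9% of adipocyte-like nuclei held a UMI, against 20.1% and 3.32% of macrophage- and T cell-like nuclei. *Gm9899* had the lowest ratio of the members, -1.67 (-1.83 to -1.51), with 159 CPM (150 to 168, 1204 UMIs) and 49.9 CPM (45.2 to 54.9, 416 UMIs). Nuclei with a UMI of *Gm9899* made up 14.6% and 5.40% of adipocyte-like nuclei at equal depth, and 7.07% and 1.17% of macrophage- and T cell-like nuclei. The intervals of the 2 ratios overlapped, so the order of these 2 members was not resolved at this depth.

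*A530053G22Rik* was the one member on the other side of 0. It stood at 1463 CPM (1435 to 1490, 11092 UMIs) in *Wtap* flox/flox and at 1711 CPM (1683 to 1739, 14261 UMIs) in the library labelled *Wtap*-BKO. The log2 ratio was 0.23 (0.19 to 0.26). The share of adipocyte-like nuclei with a UMI at equal depth was 67.5% and 67.9%, and the intervals of these shares overlapped. In macrophage- and T cell-like nuclei the same share was 40.8% and 20.3%. Over all nuclei without classes, where 3 of 10 members were at least 2-fold lower (2.81% of all genes) and 0 at least 2-fold higher (19.8%), the ratio of *A530053G22Rik* was 0.02 (-0.01 to 0.06). Adipocyte-like nuclei, where this RNA was highest, made up 70.9% of nuclei in *Wtap* flox/flox and 56.1% in the library labelled *Wtap*-BKO.

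*Gm30173*, *Gm10649* and *2900005J15Rik* were counted in under 500 UMIs per library in adipocyte-like nuclei. *Gm30173* was at 65.1 CPM (494 UMIs) and 53.1 CPM (443 UMIs), with a log2 ratio of -0.29 (-0.48 to -0.11). This value turned to 0.037 without nuclei of over 5% mitochondrial UMIs, so no direction is given for it. *Gm10649* was at 42.5 CPM (322 UMIs) and 31.3 CPM (261 UMIs), a ratio of -0.44 (-0.68 to -0.20). *2900005J15Rik* was at 65.5 CPM (497 UMIs) and 48.6 CPM (405 UMIs), a ratio of -0.43 (-0.62 to -0.24). At equal depth, a UMI of these 3 was found in 2.90% to 6.46% of adipocyte-like nuclei, against 0.269% to 4.35% of macrophage- and T cell-like nuclei. For *Gm10649* in *Wtap* flox/flox the share was 3.41% in adipocyte-like and 3.26% in macrophage- and T cell-like nuclei. For all 3 the intervals of these shares overlapped in that library, where thinning left 184 macrophage- and T cell-like nuclei. By CPM of all nuclei there, macrophage- and T cell-like nuclei stood at 26.6% (11.4% to 52.9%) of adipocyte-like nuclei for *Gm30173*. For *2900005J15Rik* this was 56.3% (32.5% to 91.0%), and for *Gm10649* 56.2% (27.8% to 101.9%). By CPM, only *Gm10649* could thus not be told from the background in *Wtap* flox/flox.

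The 2 nuclear body RNAs were lower in the library labelled *Wtap*-BKO by similar ratios. *Malat1* took 40614 CPM (308021 UMIs) in *Wtap* flox/flox and 27165 CPM (226473 UMIs) in the library labelled *Wtap*-BKO, with -0.58 (-0.59 to -0.57) as the log2 ratio. *Neat1* took 3874 CPM (29383 UMIs) and 2538 CPM (21155 UMIs), a ratio of -0.61 (-0.64 to -0.58). *Malat1* was found in nearly every nucleus, while *Neat1* was found in 94.7% and 83.6% of adipocyte-like nuclei at equal depth, and in 88.6% and 65.4% of macrophage- and T cell-like nuclei. Without nuclei of over 5% mitochondrial UMIs, the ratios of *Malat1* and *Neat1* were -0.34 and -0.22. *Gm42418* took 78655 CPM (596521 UMIs) and 66743 CPM (556425 UMIs), a ratio of -0.24 that 30.3% of all genes undercut. Its ratio was -0.49 without nuclei of over 5% mitochondrial UMIs and -0.12 among nuclei of at least 1000 UMIs.

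**Figure D1:**
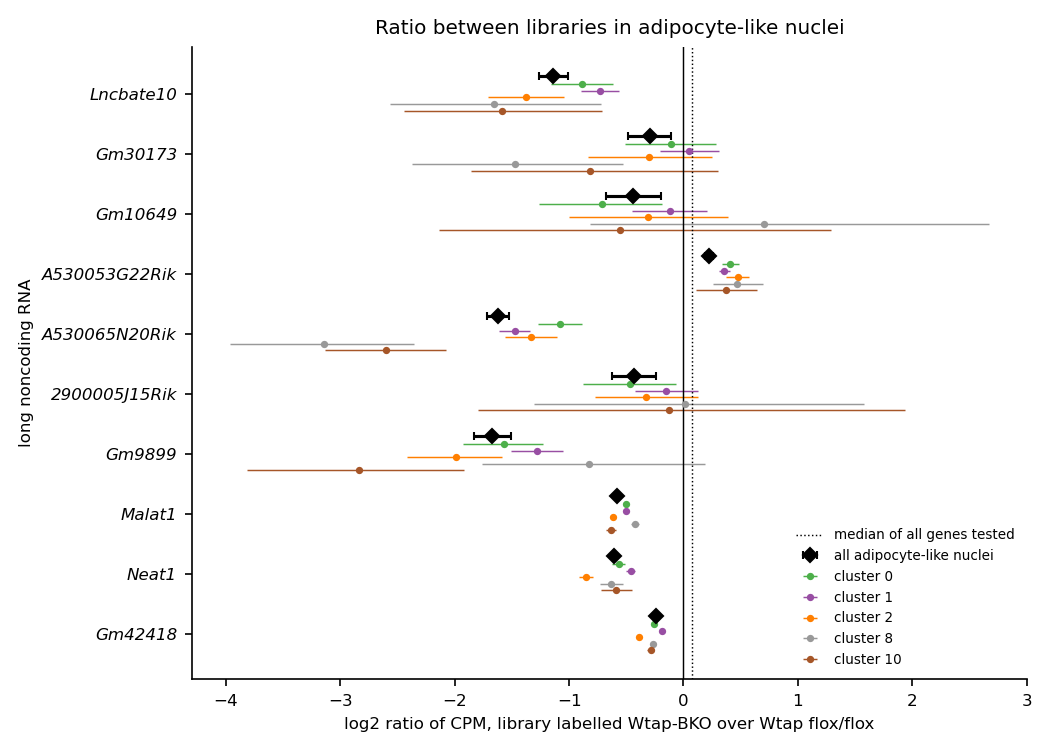
The plot of ratios shows the log2 ratio of CPM between libraries, *Wtap*-BKO as labelled over *Wtap* flox/flox (x axis), for the 10 long noncoding RNAs (y axis) in all adipocyte-like nuclei (diamonds) and in each of the 5 adipocyte-like clusters (circles), with exact 95% counting intervals and the median of all genes as a dotted line. *Lncbate10*, *A530065N20Rik*, *Malat1*, *Neat1* and *Gm42418* lie below 0 in all 5 clusters, and *A530053G22Rik* lies above 0 in all 5.

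Adipocyte-like nuclei were further split into 5 clusters. Cluster 0 was led by *Ttn* and cluster 1 by *Cabcoco1*, *Trim67* and *Lgr6*, cluster 2 was led by mitochondrial genes, cluster 8 by *Slc7a10*, *Cyp2e1* and *Trhde*, and cluster 10 by the interferon-response genes *Gbp6*, *Iigp1* and *Ifit1*. In that order they held 2575, 2574, 1258, 190 and 133 nuclei of *Wtap* flox/flox and 1389, 1322, 1387, 497 and 324 nuclei of the library labelled *Wtap*-BKO. *Lncbate10* itself was among the 10 genes that led cluster 1, although the members took no part in the clustering. *Lncbate10* was highest in cluster 1 in both libraries, with 242 CPM and 146 CPM, and lowest in cluster 8, with 74.2 CPM and 23.6 CPM. In the library labelled *Wtap*-BKO, cluster 1 was the highest for 8 of the 10 members, and in *Wtap* flox/flox for 5. Cluster 8 was the lowest for 4 and 6 members, respectively. The shares of all genes that were highest or lowest in these clusters were not taken, so the counts are not particular to the members. Cluster 1 also had the largest median depth of the 5, with 1362 UMIs in *Wtap* flox/flox and 2060.5 in the library labelled *Wtap*-BKO. In the library labelled *Wtap*-BKO, *A530065N20Rik* showed the widest range, with 302 UMIs (194 CPM) in cluster 0 and 21 UMIs in cluster 8, a 10.2-fold range. In *Wtap* flox/flox its range was 3.11-fold, and those of *Gm9899* (3.41-fold) and *Lncbate10* (3.26-fold) were wider. *Malat1* was highest in cluster 1 and lowest in cluster 2 in both libraries, and *Gm42418* was the reverse, with 110110 CPM and 84265 CPM in cluster 2 and 63274 CPM and 55404 CPM in cluster 1. The range over clusters rested on the clustering: for *Malat1* it was 1.58-fold and 1.71-fold, and with clusters formed on 8 principal components 5.06-fold and 4.80-fold.

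The ratios between libraries within clusters are shown in the plot of ratios. The interval lay below 0 in all 5 clusters for *Lncbate10*, *A530065N20Rik*, *Malat1*, *Neat1* and *Gm42418*, and in 4 of 5 for *Gm9899*. For *A530053G22Rik* it lay above 0 in all 5, with log2 ratios from 0.36 to 0.47, so each cluster gave a larger ratio than the class as a whole. *Lncbate10* had ratios of -0.89 and -0.73 in clusters 0 and 1, closer to 0 than the -1.14 of the class, and of -1.37, -1.65 and -1.59 in clusters 2, 8 and 10. *A530065N20Rik* differed between clusters in its ratio, from -1.08 (-1.27 to -0.89) in cluster 0 to -3.14 (-3.97 to -2.36) in cluster 8. *Gm30173*, *Gm10649* and *2900005J15Rik* had intervals that held 0 in 4 of 5 clusters each.

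**Figure D2:**
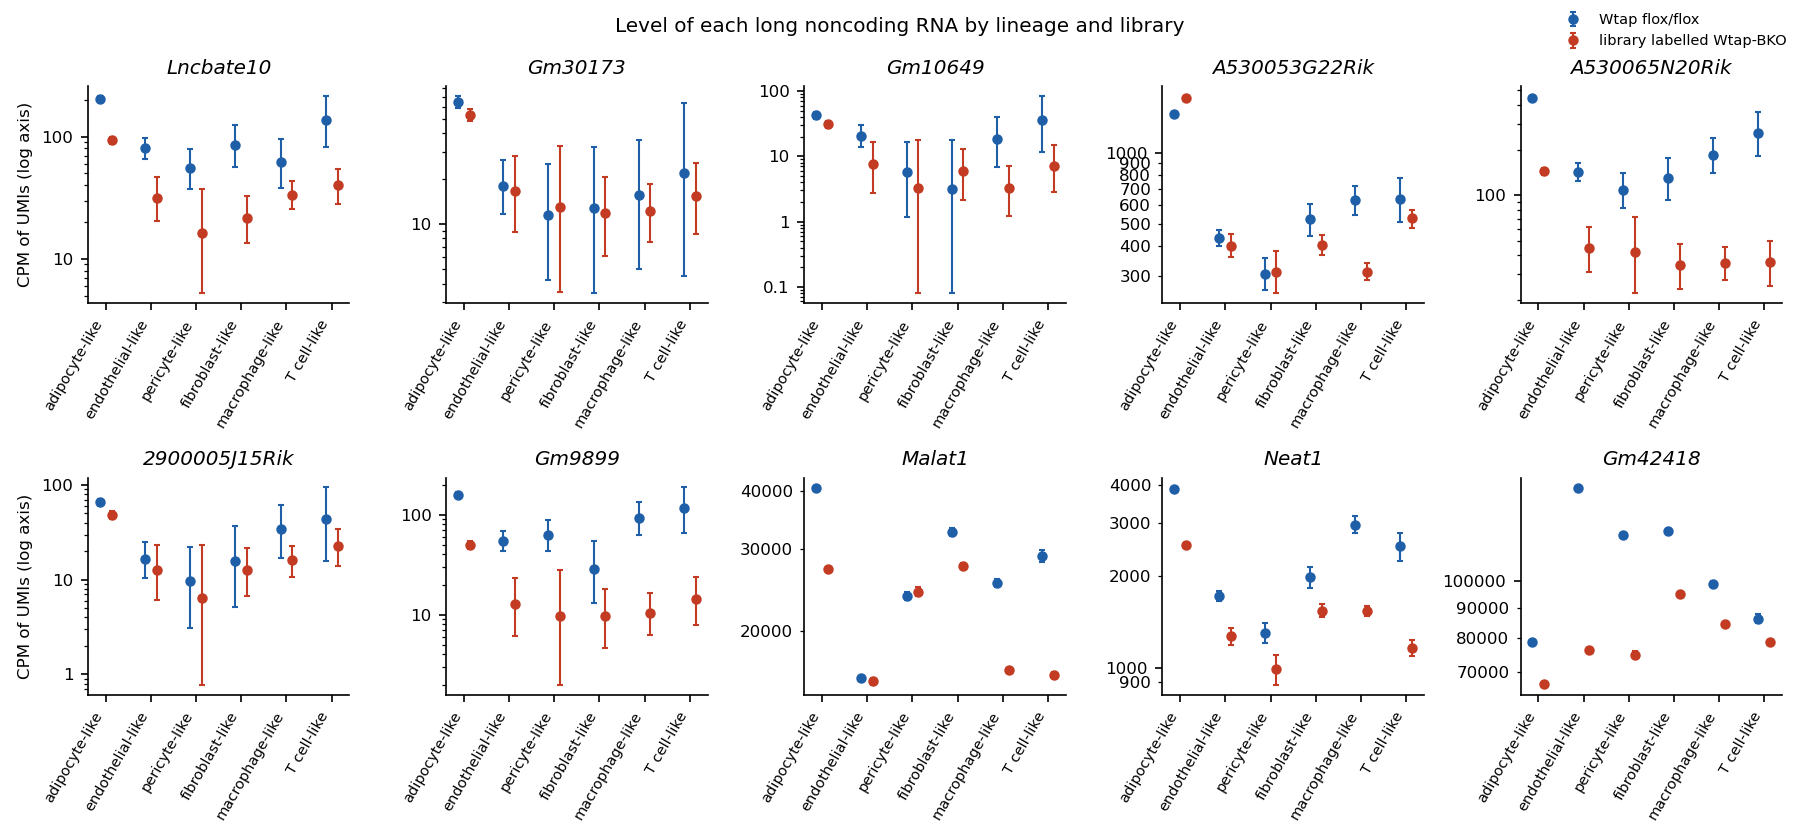
The plot of levels gives CPM of all UMIs of the class on a log axis for each long noncoding RNA in 6 lineages (x axis) and 2 libraries (colours), with exact 95% counting intervals. In *Wtap* flox/flox 9 of the 10 were highest in adipocyte-like nuclei, and *Gm42418* was highest in endothelial-like nuclei.

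Over the 6 lineages with at least 50 nuclei in each library, 9 of the 10 members had their highest CPM in adipocyte-like nuclei of *Wtap* flox/flox, and 8 in the library labelled *Wtap*-BKO. Of all genes with at least 20 UMIs, 17.5% and 19.8% did so. *Gm42418* was the exception in both. It was highest in endothelial-like nuclei of *Wtap* flox/flox with 143395 CPM, and in fibroblast-like nuclei of the other library with 94776 CPM. *Malat1* was highest in adipocyte-like nuclei of *Wtap* flox/flox, while in the library labelled *Wtap*-BKO fibroblast-like nuclei (27616 CPM) stood slightly above adipocyte-like nuclei (27165 CPM). This order turned with CPM taken over non-mitochondrial UMIs, and without nuclei of over 5% mitochondrial UMIs. *Gm10649* was highest in T cell-like nuclei of *Wtap* flox/flox without those nuclei, and among nuclei of at least 1000 UMIs. *Malat1* was lowest in endothelial-like nuclei, with 15761 CPM and 15552 CPM. *A530053G22Rik* was 2.30-fold to 4.77-fold higher in adipocyte-like nuclei than in each other lineage of *Wtap* flox/flox, and 3.26-fold to 5.47-fold higher in the library labelled *Wtap*-BKO. In *Wtap* flox/flox, T cell-like nuclei came closest for *Lncbate10*, with 137 CPM on 19 UMIs, and this difference from adipocyte-like nuclei was within counting error. For *Gm10649* (5 UMIs in T cell-like nuclei), *2900005J15Rik* (6 UMIs) and *Gm9899* (16 UMIs), the difference from T cell-like nuclei of *Wtap* flox/flox was also within counting error.

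Free RNA from broken cells can add adipocyte UMIs to other nuclei. In macrophage- and T cell-like nuclei, the 12 adipocyte markers stood at a median of 54.1% of their adipocyte-like CPM in *Wtap* flox/flox (48.0% to 87.6%) and at 33.3% in the library labelled *Wtap*-BKO (28.6% to 51.5%). The 7 members other than *Malat1*, *Neat1* and *Gm42418* stood at 46.8% (26.6% to 62.9%) and 24.5% (14.9% to 38.4%). The ranges of markers and members overlapped in both libraries, and the part of free RNA in these levels was not tested. *Malat1* was at 65.1% and 59.9%, *Neat1* at 72.8% and 55.5%, and *Gm42418* at 121% and 123%.

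Between libraries, the interval of the log2 ratio lay below 0 in all 6 lineages for *Lncbate10*, *A530065N20Rik*, *Gm9899*, *Neat1* and *Gm42418*. *Lncbate10* had ratios from -1.99 in fibroblast-like to -0.88 in macrophage-like nuclei. *Gm9899* had ratios from -3.15 in macrophage-like to -1.55 in fibroblast-like nuclei. Members at least 2-fold lower numbered 4 of 10 with enough UMIs in endothelial-like nuclei (2.81% of all genes there), 3 of 7 in pericyte-like (4.18%), 2 of 6 in fibroblast-like (4.38%), 4 of 9 in macrophage-like (6.11%) and 4 of 8 in T cell-like nuclei (8.35%). No member was at least 2-fold higher in these 5 lineages, against 14.6%, 7.93%, 11.3%, 12.6% and 17.1% of all genes. The part of free adipocyte RNA in these ratios was not tested. *Malat1* had ratios of -0.02 (-0.05 to 0.01) in endothelial-like and 0.03 (-0.01 to 0.07) in pericyte-like nuclei, and of -0.63 in macrophage-like and -0.85 in T cell-like nuclei. *Gm42418* was furthest below 0 where *Malat1* was nearest to it, and nearest to 0 in T cell-like nuclei, with -0.91 in endothelial-like, -0.68 in pericyte-like and -0.13 in T cell-like nuclei.

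Because the libraries differed in mitochondrial UMIs, adipocyte-like nuclei were also set in 5 bins of mitochondrial UMI share, and levels were taken per 1000000 UMIs that were not mitochondrially encoded. From the lowest bin (below 2%) to the highest (over 25%), *Gm42418* went from 63150 CPM to 174535 CPM in *Wtap* flox/flox and from 42365 CPM to 124595 CPM in the library labelled *Wtap*-BKO. It was thus 2.76-fold and 2.94-fold higher in the highest bin. *Malat1* went down over the same bins, from 48348 CPM to 24337 CPM and from 38364 CPM to 21617 CPM. These are log2 changes of -0.99 (-1.06 to -0.92) and -0.83 (-0.87 to -0.78). *Neat1* was also lower in the highest bin, by log2 changes of -0.62 and -0.93, and *A530053G22Rik* by -1.16 and -0.46.

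The other 6 members held 1 to 18 UMIs in the highest bin of *Wtap* flox/flox, and 3 to 26 in the lowest bin of the library labelled *Wtap*-BKO. The lowest bin held 1372 nuclei of *Wtap* flox/flox and 84 of the library labelled *Wtap*-BKO, and the highest held 56 and 331. *Gm10649* had 1 UMI in the highest bin of *Wtap* flox/flox, and its log2 change of -1.68 had an interval of -7.00 to 0.83. Intervals of *Gm30173*, *2900005J15Rik* and *Gm9899* also held 0 in both libraries. *Lncbate10* was lower in the highest bin of the library labelled *Wtap*-BKO, at -0.97 (-1.83 to -0.10), and *A530065N20Rik* in that of *Wtap* flox/flox, at -0.88 (-1.64 to -0.21), while each interval held 0 in the other library. A change of at least 2-fold was met by 3 of 10 members in *Wtap* flox/flox, against 35.5% of all genes with enough UMIs in these bins, and by 2 of the 9 with enough UMIs in the library labelled *Wtap*-BKO, against 24.1%. These member counts are near the shares of all genes. They hold *Gm42418* in both and *A530053G22Rik* in *Wtap* flox/flox alone. The other 2 calls, *Gm10649* and *2900005J15Rik*, rested on intervals that held 0. Per 1000000 of all UMIs, 6 and 4 members were past 2-fold (42.7% and 40.8% of all genes), and over all nuclei 10 of 10 and 3 of the 9 with enough UMIs were (43.7% and 37.1%).

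**Figure D3:**
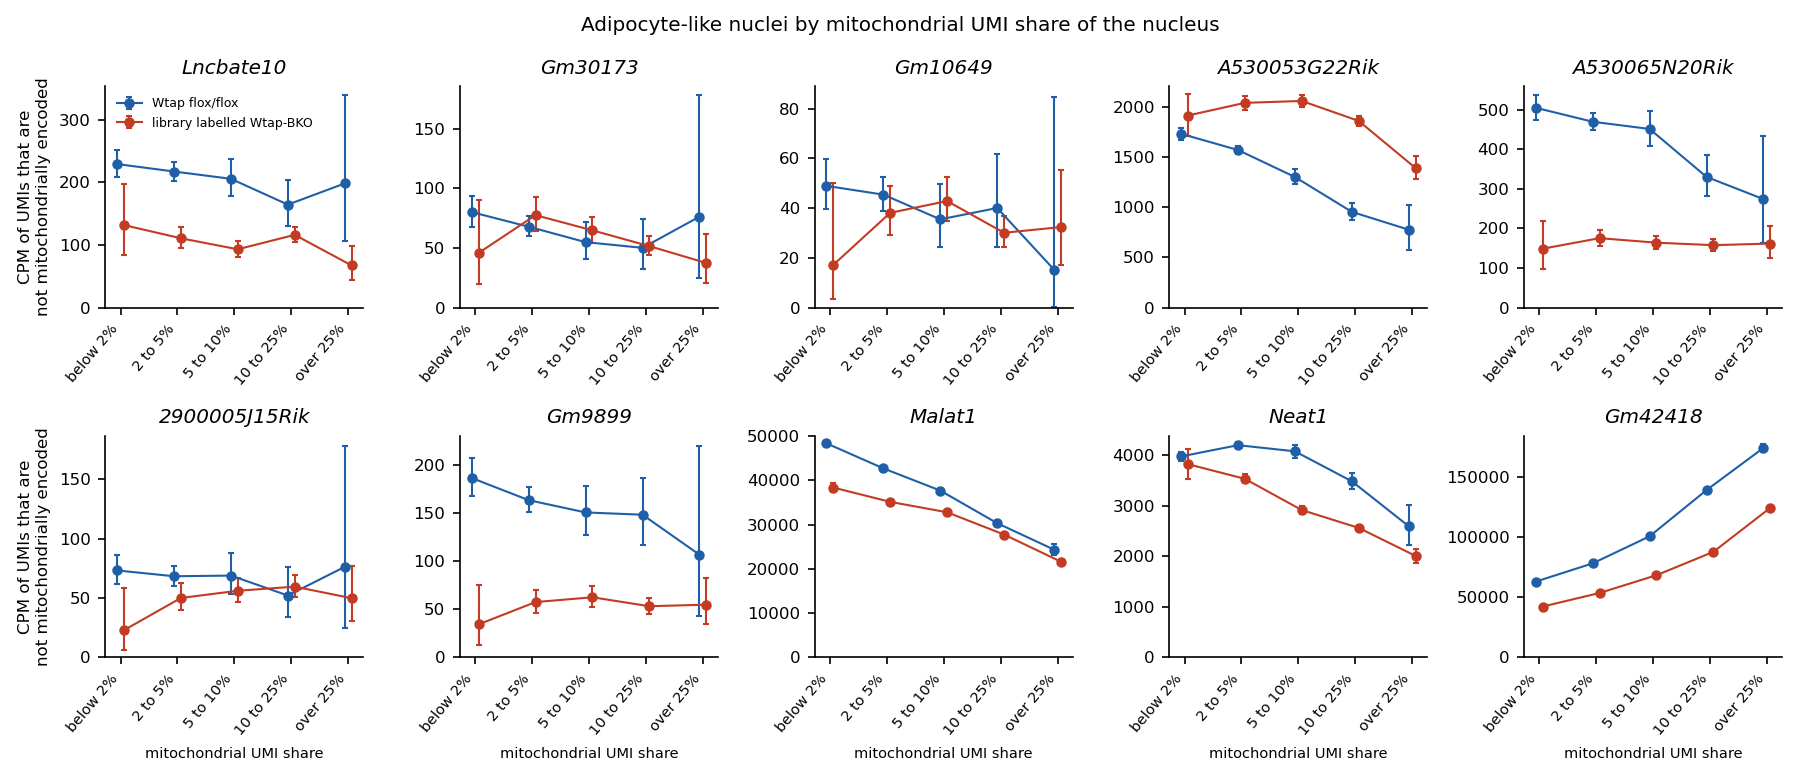
The plot of mitochondrial bins shows CPM of UMIs that are not mitochondrially encoded (y axis from 0) against the mitochondrial UMI share of the nucleus (x axis) for adipocyte-like nuclei of 2 libraries (colours), with exact 95% counting intervals. *Gm42418* goes up and *Malat1* goes down from the lowest to the highest bin in both libraries, and *Lncbate10* is lower in the library labelled *Wtap*-BKO in all 5 bins.

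Within bins, the ratio between libraries of *Lncbate10* lay below 0 in 5 of 5, from -1.56 to -0.50. *A530065N20Rik* and *Gm9899* had intervals below 0 in 4 of 5 bins, and in the fifth, the highest bin, they were at -0.76 (-1.53 to 0.08) and -0.96 (-2.24 to 0.51). *Malat1* stayed below 0 in 5 of 5 bins, with ratios from -0.33 to -0.13. On the same denominator, without mitochondrial UMIs, its ratio over the class was -0.47. *Neat1* had ratios from -0.48 to -0.06 over the 5 bins, with the interval below 0 in 4 of them and -0.50 for the class on that scale. *Gm42418* was further below 0 within bins, from -0.66 to -0.49, than in the class, at -0.12 on that scale. *A530053G22Rik* had its interval above 0 in 4 of 5 bins, with the ratio at 0.14 (-0.02 to 0.31) in the lowest bin and 0.96 (0.83 to 1.10) at 10 to 25%. *Gm30173* and *Gm10649* had intervals that held 0 in all 5 bins, and *2900005J15Rik* had ratios from -1.68 to 0.19, with the interval below 0 in 2 of 5.

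**Figure D4:**
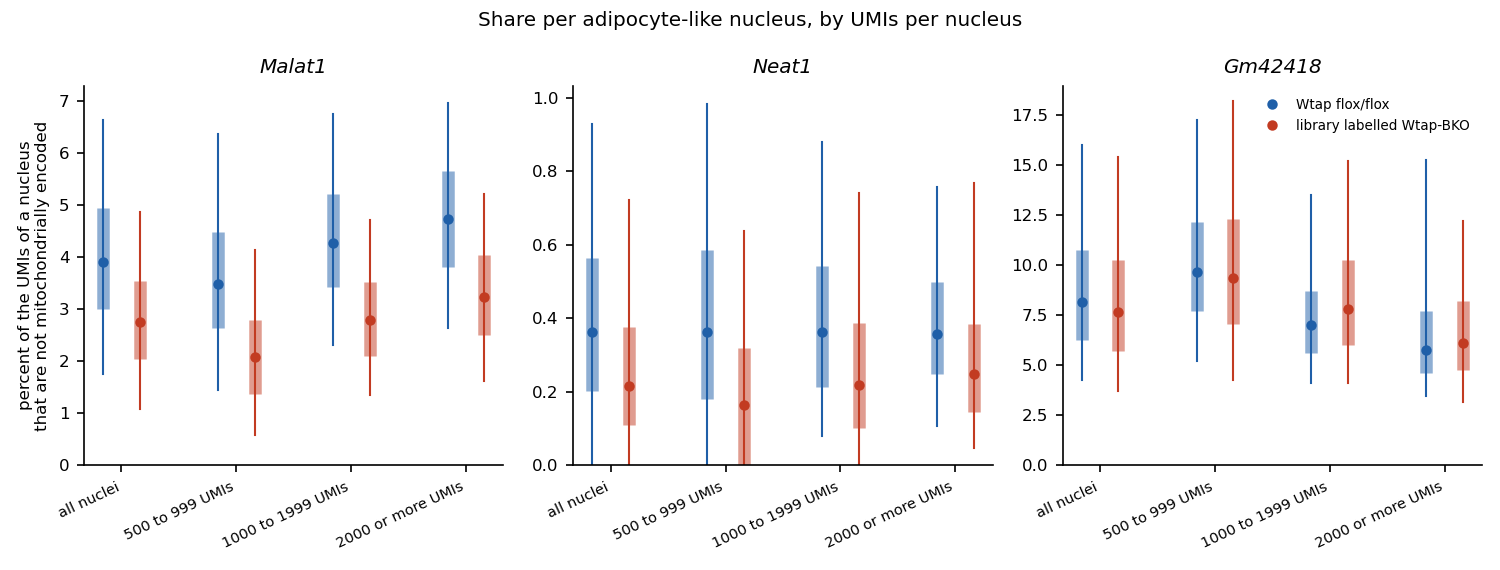
The plot of shares per nucleus gives the percent of non-mitochondrial UMIs taken by *Malat1*, *Neat1* and *Gm42418* (y axis from 0) in adipocyte-like nuclei of 2 libraries (colours), over all nuclei and by UMIs per nucleus (x axis). Points are medians, thick bars run from the 25th to the 75th percentile and thin lines from the 5th to the 95th, and the *Malat1* median is lower in the library labelled *Wtap*-BKO at each depth.

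Single nuclei were compared for the 3 abundant members. *Malat1* took a median of 3.90% of the non-mitochondrial UMIs of an adipocyte-like nucleus in *Wtap* flox/flox and 2.75% in the library labelled *Wtap*-BKO. The middle 50% of nuclei spanned 3.001% to 4.949% and 2.03% to 3.54%, so the 2 distributions overlapped. Its share was larger in deeper nuclei, with medians of 3.48% and 2.07% below 1000 UMIs and of 4.73% and 3.24% at 2000 UMIs or more. *Neat1* had medians of 0.362% and 0.217%. *Gm42418* had medians of 8.18% and 7.67%, and its order between libraries depended on depth. Below 1000 UMIs the medians were 9.66% and 9.36%, whereas from 1000 to under 2000 UMIs they were 7.02% and 7.81%, with the library labelled *Wtap*-BKO above. At 2000 UMIs or more they were 5.76% and 6.12%, in the same order.

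Across adipocyte-like nuclei with at least 1000 UMIs, the *Gm42418* share went with the mitochondrial share, with Spearman's rho of 0.522 over 3282 nuclei of *Wtap* flox/flox and 0.624 over 3830 nuclei of the other library. For the *Malat1* share, rho with the mitochondrial share was -0.294 and -0.364, and with the *Gm42418* share -0.275 and -0.341. *Neat1* and *Malat1* were nearly unrelated, with rho of 0.0467 and 0.0965. The nuclei of 1 library share its preparation and depth, and shares of 1 total bear on each other, so these values are a description.

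The genes that neighbour or overlap a member were set beside it in adipocyte-like nuclei. *Prkag2*, which holds *2900005J15Rik*, had a log2 ratio of -1.70 (17328 and 5854 UMIs), further below 0 than the -0.43 of the member. *1500035N22Rik*, another long noncoding RNA within *Prkag2*, stood at -2.89 (121 and 18 UMIs). *Kcnk3* had a ratio of -0.39 (-0.45 to -0.33) against the -1.67 of the overlapping *Gm9899*. *Cib4*, on the other side of *Gm9899* at 28.1 kb, was at 0.57. *Nr3c2* was at -0.22 beside *Gm10649* at -0.44, and *Ppargc1b*, 69.5 kb from *Lncbate10*, was at -0.42. On the other side of *Lncbate10*, *Gm46637* was at -0.84 (-1.63 to -0.07) on 39 and 24 UMIs, and *Arhgef37* at 0.69 (-0.10 to 1.51) on 22 and 39 UMIs. *Gas1*, which encodes a growth arrest protein, was at 0.51 on 128 and 201 UMIs, 57.7 kb from *A530065N20Rik* with its -1.62. *Foxo1*, a transcription factor gene 166.9 kb from *Gm30173*, was at -1.24, and *Gm2447*, a long noncoding RNA 189.5 kb away on the other side, was at 0.95 on 42 and 89 UMIs. *Gprin3*, a protein-coding gene 970.9 kb from *A530053G22Rik*, was at 1.96. *Frmd8*, 5.5 kb from *Neat1*, was at 0.35, with an interval of -0.17 to 0.88 that held 0.

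The genes whose profile was most like a member were sought over 12 profiles, 6 lineages in 2 libraries, among 10325 genes. *Letmd1*, *Macrod1* and *Ppargc1a* were nearest to *Lncbate10*, with Pearson's r of 0.968 each on log2(CPM + 1). *Xrcc6*, *Pmepa1* and *Prkag2* were nearest to *A530065N20Rik*, with r from 0.989 to 0.993, and *Fam13a*, *Xrcc6* and *Fastkd1* to *Gm9899*, with r from 0.970 to 0.973. *Sh2b2*, *Thrb* and *Dgat1* were nearest to *A530053G22Rik* (0.959 to 0.968). Of the low-count members, *Gm30173* was nearest to *Myl1*, *Miga2* and *Akt2*, *Gm10649* to *Pkd2l2*, *Impdh1* and *Psmd3*, and *2900005J15Rik* to *Gm3289*, *Clybl* and *Flcn*. *Malat1* was nearest to *Adam12*, *Metap1d* and *Atxn2*, *Neat1* to *Osbpl11*, *Ccnl1* and *Shb*, and *Gm42418* to *Cdk8*, *Lars2* and *Gm19951*. Among the members, *A530065N20Rik* and *Gm9899* had the highest r with each other, 0.966, while r of *Gm42418* with the other members ran from -0.443 to 0.221. The profiles of 1 library share its depth and free RNA, so r is given as a description.

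Other long noncoding RNAs were set beside the members. Of 24 such genes in the files, 20 had enough UMIs in adipocyte-like nuclei, with a median log2 ratio of -0.13. *Pvt1* (1.03, 166 and 372 UMIs) and *Snhg1* (1.12, 176 and 421 UMIs), a host gene of small nucleolar RNAs, were at least 2-fold higher in the library labelled *Wtap*-BKO, and 0 of 20 were at least 2-fold lower, against 14.8% and 4.21% of all genes in these nuclei. The same shares apply to the next gene lists. Of the other genes at the ribosomal RNA locus, *AY036118* had a ratio of -1.04 and *Gm26917* of 0.23, so that the 3 entries did not share a direction. Of 16 genes for paraspeckle proteins, which bind *Neat1*, 10 were below 0, against 45.4% of all genes, and 0 were past 2-fold, with a median of -0.23. Of 15 nuclear speckle genes, 12 were below 0, against the same 45.4%, and 0 were past 2-fold, also with a median of -0.23. *Neat1* at -0.61 and *Malat1* at -0.58 thus lay below both medians. Of 10 genes with enough UMIs in a list of brown adipocyte genes, which also held *Celf1*, 9 were below 0, 2 of them at least 2-fold, *Ppargc1a* (-1.29) and *Pparg* (-1.09), and the median was -0.67. *Ucp1*, which encodes the uncoupling protein of brown fat, lay on the other side of 0, at 0.77 (0.66 to 0.87) on 1149 and 2152 UMIs. *Celf1*, which encodes the protein that *Lncbate10* binds, was at -0.13 (-0.23 to -0.03).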

How the data were processed

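The members and all gene lists were chosen with earlier results of these data known. Nuclei of frozen iBAT were sequenced on a droplet platform that counts 3' ends. The deposited values were raw UMI counts per gene and nucleus, which the authors made with Cell Ranger 5.0.0 per the file headers. The submitters' processing notes name mm10, Trimmomatic, FastQC and Seurat. How intronic reads were treated, and with which annotation, is not given in the sources used here. The lowest total was 500 UMIs per nucleus, and no nucleus was removed here.

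After the methods of the study, the libraries were integrated and clustered with Seurat 5.3.0 (R 4.3.3) on 2000 variable features, 20 principal components and a resolution of 0.5, with the 10 members left out of the features. The study's methods also name 8 principal components for a subsequent clustering, which was run as an alternative. Of 13 clusters, 5 were adipocyte-like and 1, led by mitochondrial genes, stayed unnamed. A lineage needed 3 markers at 2-fold, and adipocyte-like clusters 50% of 12 markers at 1.5-fold. Scrublet in scanpy 1.11.5 called 3 and 0 nuclei, so no doublets were removed. As an alternative, the 721 and 616 nuclei with the highest scores were left out.

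UMIs were summed per class and library and given as CPM. With 1 library per genotype no test was possible and no p-value is given. CPM have exact Poisson, ratios exact conditional and shares exact binomial 95% intervals (scipy 1.17.1). The ratio and its interval were run on Poisson counts simulated at the real totals. Such counts follow the model of the interval and hold no variation between nuclei, mice or libraries. Lineages needed 50 nuclei in each library, and ratios counted past 2-fold needed 20 UMIs over both libraries. The text names the 10 members, list genes past 2-fold, neighbours in RefSeq (GRCm38.p6), and the 3 genes most like each member. Mitochondrial bins needed 20 nuclei each.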

Additional observations from a re-analysis of the deposited data

Results flagged for a closer look

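*A530053G22Rik* differed in direction between lineages. The log2 ratio between libraries, *Wtap*-BKO as labelled over *Wtap* flox/flox, was 0.23 (0.19 to 0.26) in adipocyte-like nuclei, -0.36 (-0.63 to -0.09) in fibroblast-like nuclei and -1.01 (-1.24 to -0.77) in macrophage-like nuclei, each with a counting interval apart from 0. In endothelial-, pericyte- and T cell-like nuclei it was -0.11, 0.03 and -0.27, with intervals that held 0. With 1 library per genotype the difference between lineages was not tested. In macrophage- and T cell-like nuclei together, its CPM was 43.2% of the adipocyte-like CPM in *Wtap* flox/flox and 22.6% in the library labelled *Wtap*-BKO. The 12 adipocyte markers had medians of 54.1% and 33.3% there, and the part of free RNA in the difference was not tested.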

How the results depend on the processing

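Over 11 alternatives (scaling, denominator, depth, mitochondrial share, clustering, doublets and class), 0 members were at least 2-fold higher in each. There were 3 at least 2-fold lower in each but 1, and 2 without nuclei of over 5% mitochondrial UMIs, where *Lncbate10* was at -0.98. One alternative, without the adipocyte-like cluster led by mitochondrial genes, was chosen after the data were seen. The log2 ratio of *Lncbate10* ran from -1.29 to -0.98, of *A530065N20Rik* from -1.81 to -1.49, of *Gm9899* from -1.91 to -1.56 and of *A530053G22Rik* from 0.02 to 0.34. Without nuclei of over 5% mitochondrial UMIs, *Gm30173* changed sign, to 0.037. *Neat1* and *Malat1* were also nearest to 0 under that alternative, at -0.22 and -0.34, and the cause was not tested. The count of members at least 2-fold different between mitochondrial bins, 3 and 2, moved to 6 and 4 with all UMIs as the denominator, which holds the mitochondrial UMIs that define the bins (42.7% and 40.8% of all genes), and to 10 and 4 over all nuclei. The 4 include *Gm10649*, which had too few UMIs there, and 3 of the 9 others were past 2-fold (37.1% of all genes, and 43.7% in *Wtap* flox/flox). Without a filter on low counts, 18.97% of genes were at least 2-fold higher and 12.7% lower in adipocyte-like nuclei. No paired analysis was possible because each genotype had 1 library, and no replicate could be left out. Depth limits *Gm10649*, *Gm30173* and *2900005J15Rik*, which had under 500 UMIs per library in adipocyte-like nuclei.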
